A study of Mus musculus with 6 samples.

Results

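Integrins are the receptors by which endothelial cells (ECs) hold on to the matrix around them, and 10 mouse integrin chains were described in ECs from metastasis-bearing mouse lungs. The chains were the α chains Itga1, Itga2, Itga3, Itga5, Itga6 and Itgav and the β chains Itgb1, Itgb3, Itgb4 and Itgb5. Their members on the array were all probe sets that the platform annotation gave to 1 of these symbols and to no other gene. All 10 of 10 chains were measured, by 30 probe sets, out of 18193 genes that had a probe set of their own. The mice were of the immunodeficient NSG strain, which lacks T, B and natural killer cells, and were 6 to 8 weeks old. All of them carried lung metastases of the human breast cancer line MDA-MB-231-LM2. One group received clodronate-liposome, which kills phagocytes that take up the particles, and its control group received PBS-liposome, in both groups on days 14, 16 and 18 after the cancer cells, with lungs taken on day 20. ECs were sorted as CD31-positive cells that lacked CD45, CD11b, EpCAM, CD140a, CD140b and the GFP of the cancer cells, and 3 arrays were run for each group. The labels do not say how many mice stood behind 1 array, so the tests measured the spread between these samples.

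An integrin is a pair of 1 α and 1 β chain that spans the membrane, with the matrix bound outside and the actin or keratin cytoskeleton bound inside through adaptors. The pair sets the ligand. The pairs α3β1, α6β1 and α6β4 bind laminins, the main glycoproteins of the vascular basement membrane. The pairs α5β1, αvβ3 and αvβ5 bind fibronectin, vitronectin and related proteins through the short motif Arg-Gly-Asp (RGD), whereas α1β1 and α2β1 are mainly collagen receptors. In quiescent vessels ECs rest on laminin through β1 integrins, and αvβ3 is known for its rise in angiogenic vessels.

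The defining genes of ECs were high on every array. Over the 13 pan-endothelial markers, the mean log2 signal of an array lay between 13.0 and 13.2 in the clodronate-liposome group, and between 13.0 and 13.1 in the PBS-liposome group. CD31 itself (Pecam1) differed by 0.07 (SE 0.094) and VE-cadherin (Cdh5) by 0.09 (SE 0.12). Signals are on the log2 scale throughout, and a difference is clodronate-liposome minus PBS-liposome. They are bulk values of a sorted population, so that fewer cells of a type and less RNA per cell cannot be told apart. Every array had a median of 8.13, which follows from a normalization that equalizes the arrays. The correlation between arrays over all probe sets was 0.986 to 0.990 within the clodronate-liposome group, 0.989 to 0.991 within the PBS-liposome group and 0.985 to 0.988 between the groups.

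None of the 10 chains passed the test. In the limma fit over 45037 probe sets, 0 of their 30 probe sets had a Benjamini-Hochberg adjusted p under 0.05, where 0.306% of all probe sets did (0.238% lower and 0.0688% higher). At an unadjusted p under 0.05 there were 6 of 30 integrin probe sets (20%), 5 of them lower and 1 higher, against 10.8% of all probe sets (5.27% lower and 5.53% higher). The values of both groups did not overlap in 6 of 30 (20%), with 5 lower and 1 higher, against 16.0% (8.04% lower and 7.97% higher). The median difference was -0.02 over the integrin probe sets and -0.00014 over all probe sets. Within the family, the most negative differences were those of β chains other than Itgb1. The 17 probe sets of the 6 α chains included 0 at an unadjusted p under 0.05. The 7 probe sets of Itgb3, Itgb4 and Itgb5 all had negative differences, between -0.60 and -0.34. These 3 β chains were grouped after their values had been seen, so their count is a description.

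**Figure D1:**
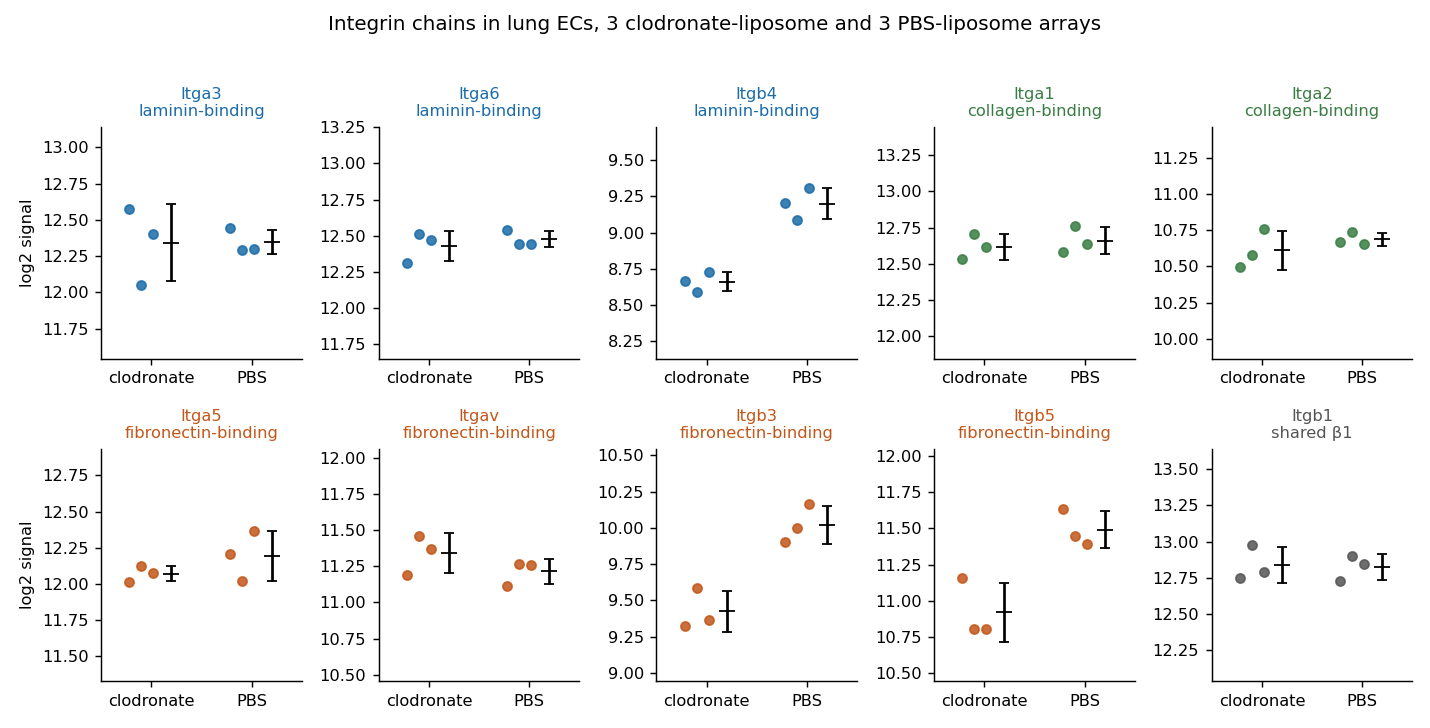
Log2 signal of each integrin chain on 3 clodronate-liposome and 3 PBS-liposome arrays, by the probe set of each gene with the highest mean, with bars for mean and SD. The groups did not overlap for Itgb3, Itgb4 and Itgb5 and overlapped for the other 7 chains.

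Promoter sequence is shown for Itgb5, the β chain with the most probe sets among those that were lower, beside Itgav, its α partner, and Itgb1, the β chain shared by both ligand classes. Each window runs from 250 bases before to 50 bases after the start of the gene in RefSeq, build GRCm38.p6, 5′ to 3′ on the strand of the gene, with GC boxes (GGGCGG on either strand) in capitals. The windows lie at chr16:33829415-33829714 (plus strand), chr2:83724147-83724446 (plus strand) and chr8:128685404-128685703 (plus strand).
Itgb5: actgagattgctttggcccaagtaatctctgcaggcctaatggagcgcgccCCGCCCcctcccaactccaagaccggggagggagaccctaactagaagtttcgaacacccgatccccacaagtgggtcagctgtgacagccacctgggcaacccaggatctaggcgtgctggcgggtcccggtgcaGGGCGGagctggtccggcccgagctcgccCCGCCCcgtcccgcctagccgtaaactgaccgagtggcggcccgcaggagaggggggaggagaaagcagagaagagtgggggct
Itgav: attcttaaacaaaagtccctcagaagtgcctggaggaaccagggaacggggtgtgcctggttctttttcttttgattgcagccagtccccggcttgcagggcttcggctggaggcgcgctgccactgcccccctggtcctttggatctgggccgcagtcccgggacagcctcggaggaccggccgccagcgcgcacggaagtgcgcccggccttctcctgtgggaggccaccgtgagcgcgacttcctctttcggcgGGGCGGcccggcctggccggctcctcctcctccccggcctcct
Itgb1: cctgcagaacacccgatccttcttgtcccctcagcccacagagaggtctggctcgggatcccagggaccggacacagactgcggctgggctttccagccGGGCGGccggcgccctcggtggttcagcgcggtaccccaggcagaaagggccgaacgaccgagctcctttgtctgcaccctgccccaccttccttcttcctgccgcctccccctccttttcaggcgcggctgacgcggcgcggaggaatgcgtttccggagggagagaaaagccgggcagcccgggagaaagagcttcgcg
The Itgb5 window held 3 GC boxes, and those of Itgav and Itgb1 held 1 each. RefSeq windows were found for 7 of the 10 chains, in 8 windows, and 7 of these 8 held a GC box, as did 35.7% of 32851 mouse windows of this length. None held the TATA box letters TATAAA (13.6% of all windows). The letters TTTC, any 2 bases and TTTC, the core of the interferon-stimulated response element (3.44% of all windows), TGANTCA of the AP-1 site (7.81%) and CCGGAAG of the ETS site (8.86%) were each found on either strand in 1 of 8 windows, that of Itga3. A match here is a run of letters only. Itga6, Itgb3 and Itgb4 had no window in the table.

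Among the laminin-binding chains, the groups overlapped for both α chains and did not overlap for the β chain, which was lower without passing the test. Itga6, which pairs with β1 in most ECs and with β4 in hemidesmosomes, had 12.31, 12.51 and 12.47 on the clodronate-liposome arrays, against 12.54, 12.44 and 12.45 on the PBS-liposome arrays. The difference was -0.04 (SE 0.098, limma adjusted p = 0.925), with a 95% interval of -0.27 to 0.18, and its other probe set gave -0.08. Itga3, whose pair with β1 binds laminins of epithelial and endothelial basement membranes, had 12.58, 12.05 and 12.40 on the clodronate-liposome arrays, against 12.44, 12.30 and 12.30 on the PBS-liposome arrays. The clodronate-liposome arrays lay on both sides of the others and spread wider, and the 3 probe sets of the gene differed by -0.02 to 0.03.

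Itgb4 encodes the β4 chain, which pairs with α6 alone and, unlike other β chains, reaches keratin filaments through plectin. It had 8.66, 8.59 and 8.73 on the clodronate-liposome arrays, against 9.21, 9.09 and 9.31 on the PBS-liposome arrays. Each clodronate-liposome array was below each PBS-liposome array. The mean was 8.66 ± 0.067 in clodronate-liposome ECs and 9.20 ± 0.11 in PBS-liposome ECs (SD, n = 3 each), 1.45-fold lower, with a difference of -0.54 (SE 0.10). This was the smallest p among the 30 probe sets of the 10 chains (0.00069 unadjusted), and it missed the threshold after adjustment over the array (limma adjusted p = 0.0958). It was the only probe set of the gene.

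Among the fibronectin-binding chains the pattern repeated, with α chains that overlapped between the groups and β chains that were lower in clodronate-liposome ECs without passing the test. Itga5, the α chain of the main fibronectin receptor, had 12.02, 12.12 and 12.08 on the clodronate-liposome arrays, against 12.21, 12.02 and 12.36 on the PBS-liposome arrays. The difference was -0.12 (SE 0.11, limma adjusted p = 0.776), and its 3 other probe sets lay between -0.05 and 0.23. Itgav, the α chain that pairs with β3 and β5, had 11.19, 11.46 and 11.37 on the clodronate-liposome arrays, against 11.12, 11.26 and 11.26 on the PBS-liposome arrays. It was 0.13 higher (SE 0.11, limma adjusted p = 0.755), and all 5 of its probe sets had differences above 0, from 0.01 to 0.18, none past the threshold.

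Itgb3 encodes β3, the chain of the vitronectin receptor of angiogenic ECs and, with αIIb, of the fibrinogen receptor of platelets. It had 9.32, 9.59 and 9.36 on the clodronate-liposome arrays, against 9.90, 9.998 and 10.16 on the PBS-liposome arrays. All clodronate-liposome values were below all PBS-liposome values. The mean was 9.42 ± 0.14 in clodronate-liposome ECs and 10.02 ± 0.13 in PBS-liposome ECs (SD, n = 3 each), a difference of -0.60 (SE 0.12), or 1.51-fold lower, with a limma adjusted p of 0.111. The second, dimmer probe set of Itgb3 had 8.45, 8.63 and 8.23 on the clodronate-liposome arrays, against 8.96, 8.76 and 9.37 on the PBS-liposome arrays. Again the groups did not overlap, with a difference of -0.59 (SE 0.17, limma adjusted p = 0.251).

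Itgb5 encodes β5, whose pair with αv binds vitronectin and takes part in the uptake of dying cells by phagocytes. Its brightest probe set had 11.16, 10.80 and 10.80 on the clodronate-liposome arrays, against 11.63, 11.45 and 11.39 on the PBS-liposome arrays. The groups did not overlap, and the difference was -0.57 (SE 0.13, limma adjusted p = 0.160), 1.48-fold lower. The 3 other probe sets of Itgb5 were lower by 0.34, 0.38 and 0.43. Without clodronate-liposome replicate 2, the lowest array in the probe sets at -0.34 and -0.43, these 2 stood at -0.16 and -0.25, and without clodronate-liposome replicate 1 at -0.49 and -0.65. Of these, the groups did not overlap in the one at -0.38 (9.14, 8.85 and 8.86 in clodronate-liposome ECs, against 9.42, 9.37 and 9.20 in PBS-liposome ECs). They overlapped in the ones at -0.34 and -0.43. In all 4 probe sets clodronate-liposome replicate 1 was the highest of its group and PBS-liposome replicate 1 the highest of the other. The brightest and the -0.38 probe set carry the suffix that the manufacturer gives to designs that may cross-hybridize, as do 4 of the 30 integrin probe sets.

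**Figure D2:**
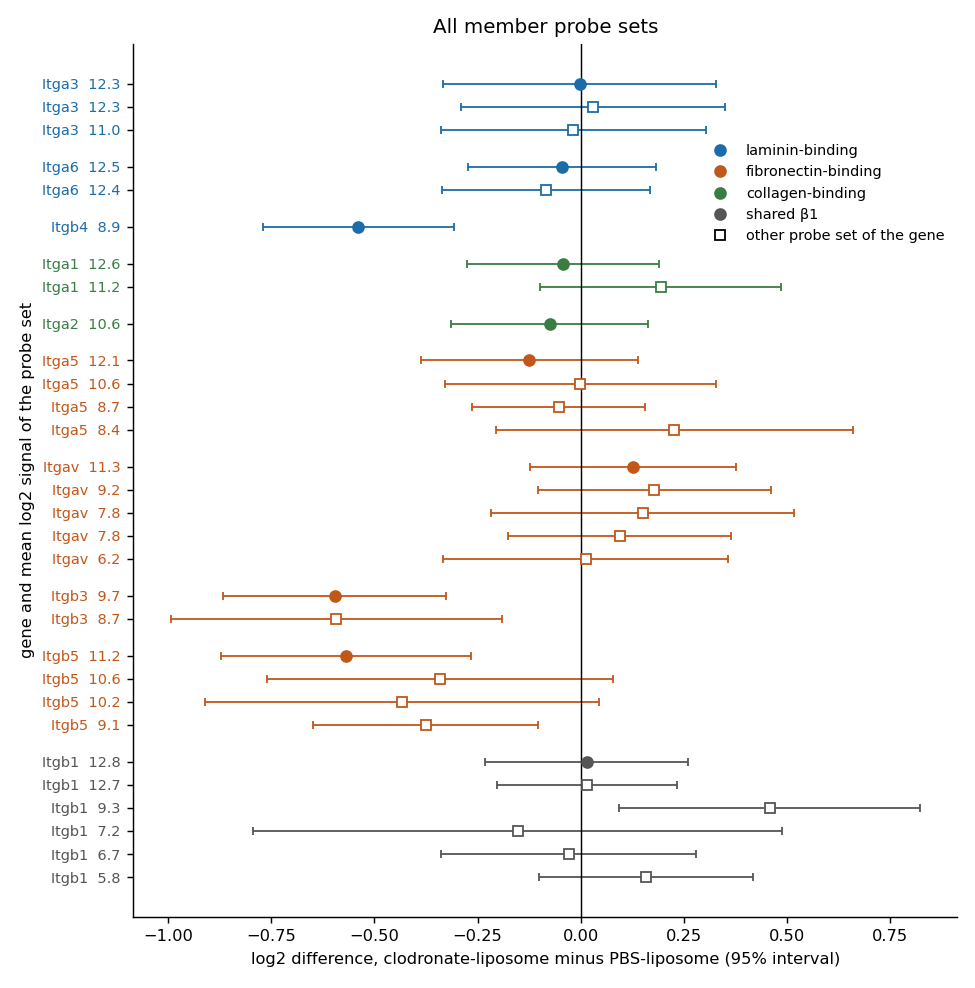
Log2 difference, clodronate-liposome minus PBS-liposome, with its 95% interval from the limma fit, for all 30 integrin probe sets, each named by its gene and its mean log2 signal. Filled circles are the probe set with the highest mean of each gene, and the 7 probe sets of Itgb3, Itgb4 and Itgb5 lie between -0.60 and -0.34 while the α chain intervals span 0.

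The collagen-binding chains overlapped between the groups. Itga1, whose pair with β1 favors basement membrane collagen and which is found on microvascular ECs, had 12.53, 12.70 and 12.61 on the clodronate-liposome arrays, against 12.58, 12.76 and 12.63 on the PBS-liposome arrays. Its difference was -0.04 (SE 0.10), and a second probe set gave 0.19 (SE 0.13). Itga2, the α chain of the fibrillar collagen receptor that platelets also carry, had 10.50, 10.58 and 10.76 on the clodronate-liposome arrays, against 10.67, 10.74 and 10.66 on the PBS-liposome arrays, a difference of -0.08 (SE 0.10). For the 6 α chains together, by the brightest probe set of each, the 95% intervals ran from -0.39 at the lowest bound to 0.38 at the highest, which leaves room for differences of up to that size.

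Itgb1, the common partner of α1, α2, α3, α5 and α6, had 12.75, 12.98 and 12.79 on the clodronate-liposome arrays, against 12.73, 12.90 and 12.85 on the PBS-liposome arrays. The groups overlapped, with a difference of 0.01 (SE 0.11, limma adjusted p = 0.981). The next brightest probe set gave 0.02 (SE 0.095). A dim probe set built on the same sequence record as the brightest went apart from both, with 9.18, 9.51 and 9.79 on the clodronate-liposome arrays, against 9.10, 9.07 and 8.93 on the PBS-liposome arrays. It was 0.46 higher (SE 0.16, limma adjusted p = 0.334), did not overlap between the groups, and is of the kind that may cross-hybridize. The 3 dimmest probe sets of Itgb1 differed by -0.15, -0.03 and 0.16.

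By the brightest probe set of each gene, 3 of 10 chains were lower without overlap (Itgb3, Itgb4 and Itgb5), against 8.75% of all genes. A difference of -0.5 or below, which these 3 chains had, was found in 1.99% of all genes. Both percentages describe the array, since the chains were grouped by these values. Itgb5 entered both counts by its brightest probe set, a design that may cross-hybridize. Of its other probe sets, those at -0.34 and -0.43 overlapped between the groups.

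Laminin-binding and fibronectin-binding chains were set against each other by class means, taken per array over Itga3, Itga6 and Itgb4 for laminin and over Itga5, Itgav, Itgb3 and Itgb5 for fibronectin, each gene centered on its mean over the 6 arrays. The laminin-binding mean was -0.06, -0.19 and -0.04 on the clodronate-liposome arrays, against 0.15, 0.03 and 0.11 on the PBS-liposome arrays. The fibronectin-binding mean was -0.16, -0.09 and -0.18 on the clodronate-liposome arrays, against 0.13, 0.10 and 0.21 on the PBS-liposome arrays. Both class means were thus lower in clodronate-liposome ECs, by 0.20 for laminin-binding and 0.29 for fibronectin-binding chains. In the laminin-binding class this came mostly from Itgb4 (-0.54), with Itga6 at -0.04 and Itga3 at -0.0025. In the fibronectin-binding class it came from Itgb3 (-0.60) and Itgb5 (-0.57), with Itga5 at -0.12 and Itgav at 0.13. The contrast itself, laminin-binding minus fibronectin-binding, was 0.10, -0.10 and 0.14 on the clodronate-liposome arrays, against 0.02, -0.06 and -0.10 on the PBS-liposome arrays. Its mean was 0.05 ± 0.13 in clodronate-liposome ECs and -0.05 ± 0.064 in PBS-liposome ECs (SD, n = 3 each), a difference of 0.09 that was smaller than the SD of the clodronate-liposome arrays. The arrays of both groups overlapped. Class means and their contrast are descriptions with no test. With 1 array left out the difference ran between 0.05 and 0.17, without Itgb5 it was 0.0023, over the α chains alone it was -0.03, and with the most variable probe set of each gene it was -0.05. Its size and sign thus depended on which genes each class held and on the probe set taken for a gene.

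**Figure D3:**
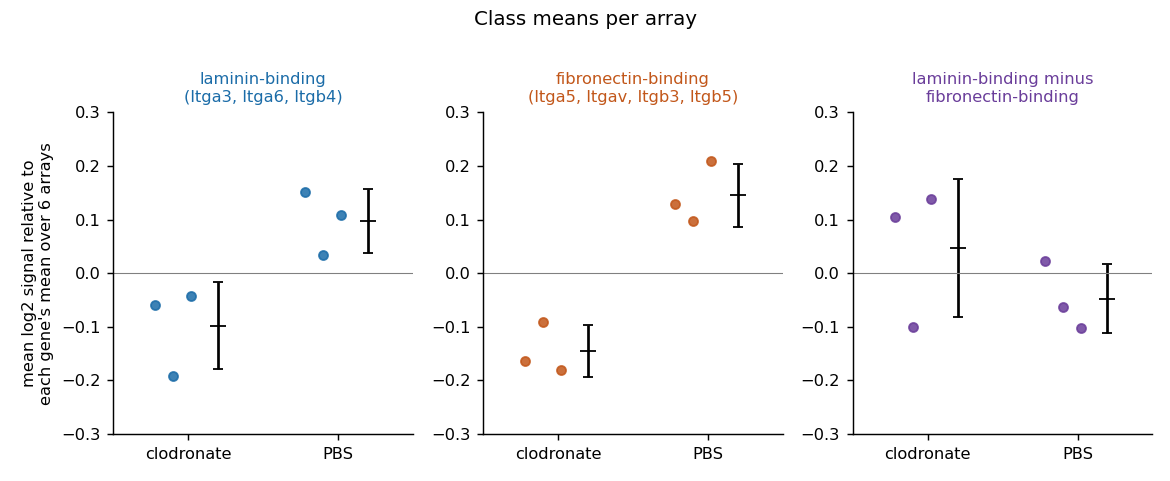
Class means per array on 3 clodronate-liposome and 3 PBS-liposome arrays, as the mean log2 signal relative to the mean of each gene over 6 arrays, with bars for mean and SD. Both class means sat lower on the clodronate-liposome arrays, by 0.20 (laminin-binding) and 0.29 (fibronectin-binding), and the contrast between them overlapped. The lower means came mostly from the β chains Itgb3, Itgb4 and Itgb5.

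A pair needs both chains, and β relative to α was computed for 8 of the pairs these chains form. The pair αvβ1 was not among them (Itgav at 0.13, Itgb1 at 0.01). The difference of the β chain minus that of the α chain was -0.72 for αvβ3, -0.70 for αvβ5 and -0.49 for α6β4. These pairs hold the β chains that were grouped after their values had been seen, and αvβ3 and αvβ5 share αv. Their values largely repeat the differences of those β chains and are descriptions. Per array, relative to the mean of each gene, β3 minus αv lay between -0.45 and -0.31 in clodronate-liposome ECs and between 0.29 and 0.46 in PBS-liposome ECs. For α6β4 these ranges were -0.39 to -0.13 in clodronate-liposome ECs and 0.17 to 0.38 in PBS-liposome ECs. For αvβ5 they were wider, -0.59 to 0.04 in clodronate-liposome ECs and 0.20 to 0.59 in PBS-liposome ECs, and did not overlap. The β5 value here was that of the brightest Itgb5 probe set, a design that may cross-hybridize. In the 5 pairs of β1 that were computed, the value lay between 0.02 and 0.14. These are transcript values, and no array value speaks of the pairs at the cell surface.

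Genes around these integrins were taken from 8 lists of other chains, regulators and ligands, with 95 genes and 207 probe sets in all. Of the 207 probe sets, 2 passed the test, both lower in clodronate-liposome ECs, and the groups did not overlap in 36 (17.4%, near the 16.0% of the array). The first was Lama1, a laminin chain bound by α6β1 (-1.10, SE 0.15, limma adjusted p = 0.0355). The other was 1 of 5 probe sets of Itga4 (-0.93, SE 0.12, limma adjusted p = 0.0312), the α chain that binds VCAM1 and fibronectin and is abundant on leukocytes. The other 4 probe sets of Itga4 gave -0.48, -0.38, -0.27 and 0.13, and the brightest of the 5 was the one at -0.27 (limma adjusted p = 0.698). With any 1 array left out, 0 of the 207 passed, and likewise with the replicate number or the hybridization controls in the fit.

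The other integrin chains, 15 measured of 17 listed, had a median difference of -0.08. Among them, 3 were named after their values had been seen. Itga2b, the αIIb chain that pairs with β3 on platelets, averaged 8.92 ± 0.13 in clodronate-liposome ECs and 9.48 ± 0.20 in PBS-liposome ECs (SD, n = 3 each), a difference of -0.56 (limma adjusted p = 0.163). The leukocyte chains Itgb2 and Itgb7 differed by -0.61 (limma adjusted p = 0.207) and -0.40 (limma adjusted p = 0.311). In all 3 the groups did not overlap, and none passed the test. Over the array, 8.75% of genes were lower without overlap, and a count of 3 picked by value is a description. Of the 15 chains, 10 had negative differences, and the highest difference was 0.15.

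Regulators and adaptors gave 0 probe sets past the threshold. Activators and inhibitors (15 of 16 measured) had a median of -0.04. In this list, Fermt3, the kindlin of hematopoietic cells that activates β3, differed by -0.46 (SE 0.11, limma adjusted p = 0.172), with -0.31, -0.06 and -0.04 for its other probe sets. Apbb1ip, the Rap1 effector RIAM, differed by -0.24 by its brighter probe set and by 0.23 by the other. Flna, a filamin that competes with talin for β tails, was 0.23 higher (limma adjusted p = 0.442). At an unadjusted p under 0.05 (limma), 3 of the 34 probe sets of this list were lower and 4 higher. Among them were dimmer probe sets whose gene differed the other way by its brightest. These were Krit1 at 0.56 and 0.42 (brightest -0.13), Tln2 at 0.50 (brightest -0.13) and Rapgef1 at -0.45 (brightest 0.12), named after their values had been seen. The focal adhesion adaptors and kinases (19 of 20 measured) had a median of 0.00, with Src at -0.26, Bcar1, the adaptor p130Cas, at -0.17 and Git2, a paxillin-binding GTPase regulator, at 0.18 (-0.06 to 0.26 over its other probe sets). The trafficking genes (6 of 6) had a median of -0.03, with -0.17 for Rab11a, a GTPase of recycling endosomes, -0.15 for the endocytic adaptor Numb and -0.14 for Rab21. At an unadjusted p under 0.05 (limma), 0 of their 15 probe sets were lower and 1 was higher. It was a dimmer probe set of Dab2 at 0.39 (limma adjusted p = 0.371), against 0.15 by the brightest of that gene. The partners and other laminin receptors (7 of 8) had a median of 0.02, with Plec, the plectin that links β4 to keratin, at -0.24, the tetraspanin Cd81 at 0.14 and Dst at 0.09 (-0.08 to 0.32 over its other probe sets).

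Ligands other than Lama1 gave 0 probe sets past the threshold. Laminins and nidogens (12 of 13 measured) had a median of 0.03, the RGD ligands (14 of 16) of 0.07 and the collagens (7 of 7) of 0.06. Of the RGD ligands, Ccn2, a matricellular protein, was 0.38 higher (limma adjusted p = 0.291) and Ltbp1, which tethers latent TGF-β to the matrix, 0.26 higher (0.35 and -0.05 by its other probe sets). Fibronectin itself (Fn1) differed by -0.26 (limma adjusted p = 0.528), and by 0.03 by a dimmer probe set. Of the collagens, Col1a2, Col1a1 and Col18a1 differed by -0.20, -0.21 and -0.16.

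**Figure D4:**
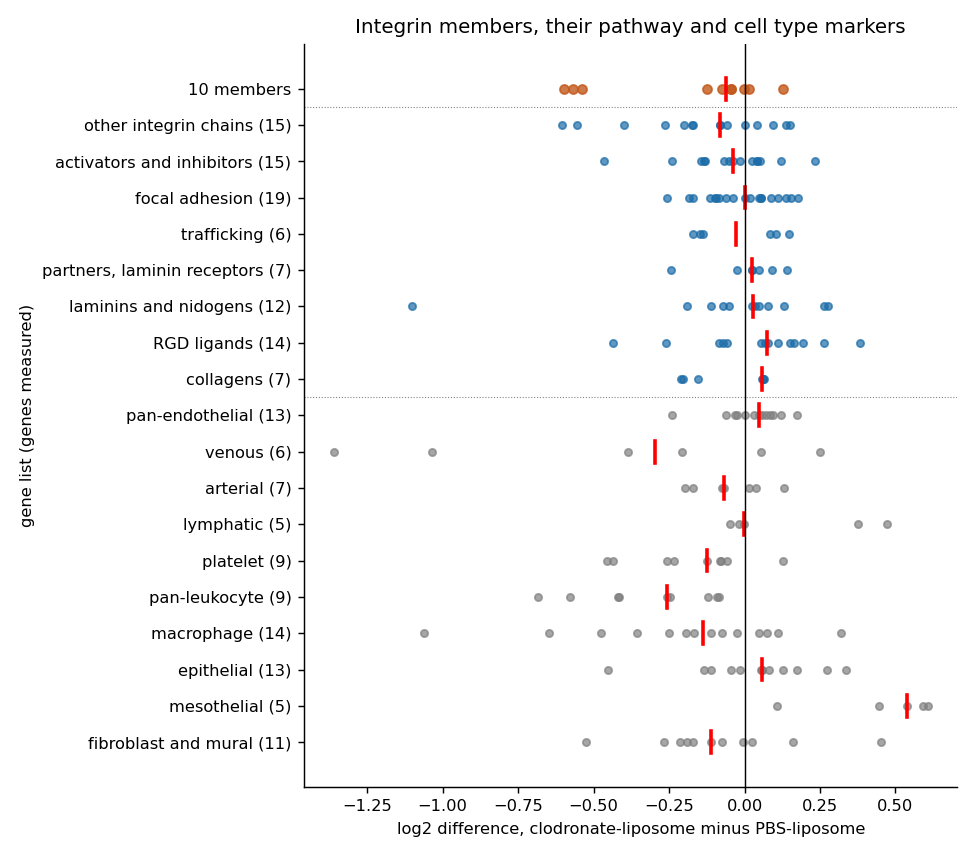
Log2 difference, clodronate-liposome minus PBS-liposome, of each gene by its brightest probe set, for the 10 integrin chains, 8 pathway lists (blue) and 10 cell type marker lists (gray), with red bars at the median of each list. The 3 β chains near -0.6 lie apart from the other 7 integrin chains, and the marker medians run from -0.30 (venous) to 0.54 (mesothelial).

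Several of these chains are also carried by platelets, leukocytes or epithelium, and the markers of those cells were set beside them. In the platelet list, 8 of 9 genes had negative differences, with a median of -0.12 and 0 past the threshold, and the list mean per array was 8.23 to 8.66 in clodronate-liposome ECs, against 8.48 to 8.73 in PBS-liposome ECs. Its defining markers went apart, with Pf4 at 0.13 and Ppbp at -0.44. All 9 of 9 pan-leukocyte genes had negative differences, with a median of -0.26, 0 past the threshold and a list mean of 8.18 to 8.43 in clodronate-liposome ECs, against 8.43 to 8.86 in PBS-liposome ECs, where Ptprc, the CD45 of the sort, was at -0.58 (limma adjusted p = 0.217) and Laptm5 at -0.25. Other probe sets gave -0.05 for Ptprc and -0.12 to 0.13 for Laptm5. Macrophage genes had 10 of 14 negative differences, a median of -0.14 and a list mean of 8.34 to 8.49 in clodronate-liposome ECs, against 8.44 to 8.75 in PBS-liposome ECs, with Csf1r at -0.65 (limma adjusted p = 0.101, and -1.24 and -0.17 by its other probe sets) and Adgre1 at -0.17. With 1 array left out, the median ran from -0.25 to 0.01 for the platelet list, turning positive without clodronate-liposome replicate 3. It ran from -0.44 to -0.11 for the pan-leukocyte list and from -0.27 to -0.04 for the macrophage list, with both upper ends reached without PBS-liposome replicate 3. At an unadjusted p under 0.05 (limma), 6 of 19 pan-leukocyte, 7 of 24 macrophage and 1 of 10 platelet probe sets were lower and 0 were higher. Over the array 5.27% were lower and 5.53% higher. The part of these cells in the values of Itgb3 and Itgb5 was not tested.

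For Itgb4, which is high in epithelium, the epithelial list had 5 of 13 negative differences and a median of 0.06. Its mean was 7.83 to 8.38 in clodronate-liposome ECs, against 8.09 to 8.24 in PBS-liposome ECs, with Epcam at -0.13 and Cdh1 at 0.08. Members of the list lay between -0.45 (Nkx2-1, limma adjusted p = 0.379, named after its value had been seen) and 0.33, and the median was -0.03 without clodronate-liposome replicate 3. The part of epithelial RNA in the value of Itgb4 was not tested. Fibroblast and mural genes had 8 of 11 negative differences and a median of -0.11 (8.93 to 9.04 in clodronate-liposome ECs, against 8.98 to 9.12 in PBS-liposome ECs), with Pdgfra at -0.19 and Pdgfrb at -0.27. Mesothelial genes had a median of 0.54, with clodronate-liposome replicate 3 at a list mean of 8.94 and all other arrays at 7.14 to 7.66. Without that array the brightest probe sets of Itgb3, Itgb4 and Itgb5 were at -0.57, -0.57 and -0.51. No marker is at 0 on these arrays, since the lowest of all values was 5.36.

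EC subtypes were also set beside the chains. The venous list had 4 of 18 probe sets past the threshold, all lower, where 0.238% of all probe sets were. They belonged to Ackr1 (-1.36 by its brightest probe set), the atypical chemokine receptor of venules, and to Selp (-1.03), the P-selectin of venular ECs and platelets. Both were named after their values had been seen. With the replicate number or the hybridization controls in the fit, 0 probe sets of the array passed, these 4 included. The list mean was 11.2 to 11.4 in clodronate-liposome ECs, against 11.7 to 11.8 in PBS-liposome ECs. Its first markers, Slc6a2 and Nr2f2, differed by -0.39 and -0.21, neither past the threshold. Arterial genes had 4 of 7 negative differences and a median of -0.07, with Gja5 at -0.17 and Gja4 at -0.20. Lymphatic genes had 3 of 5 negative differences and a median of -0.00067, or 0.18 without clodronate-liposome replicate 1, with Prox1 at -0.05 (0.16 and 0.24 by its other probe sets) and Pdpn at -0.00067. The other two, Mmrn1 at 0.47 (limma adjusted p = 0.267) and Reln at 0.38 (limma adjusted p = 0.331), were higher without overlap but not past the threshold, and were named after their values had been seen. The venous median was negative, as were the 3 β chains, and its part in their values was not tested.

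Genes whose signal followed Itga6 and Itga5 most closely over the 6 arrays were picked from 10908 genes above the array median. For Itga6 these were Slc16a8, a monocarboxylate transporter gene (Pearson r = 0.993), Fam13b (0.980) and Gm527 (0.976), and 84 genes had an r above 0.9. For Itga5 they were Def6, a guanine nucleotide exchange factor gene (0.992), Zmynd19 (0.989) and Tpst1, a tyrosylprotein sulfotransferase gene (0.983), and 40 genes had an r above 0.9. With 6 arrays in 2 groups and so many genes searched, these values are descriptions only.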

How the data were processed

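RNA of 6 sorted samples was hybridized to Affymetrix whole-genome mouse arrays, 1 array per sample. The deposited values were log2 signals that the authors had computed with robust multiarray averaging in Chipster, which corrects background, equalizes the distributions and summarizes the probes of each set. This can compress small changes of dim probe sets. The values were used as deposited, without the 64 control probe sets and with no filter on low signal. Groups came from the treatment in the labels. The empirical Bayes fit of limma 3.58.1 (R 4.3.3) held the group alone, its tests were two-sided, and p values were adjusted by Benjamini-Hochberg over 45037 probe sets at a threshold of 0.05. The steps were tested on simulated data. A gene was represented by its probe set with the highest mean, called the brightest. Gene names came from the platform annotation. Precision is limited by the 3 arrays of each group. The integrin chains, the gene lists and the rule for named genes were chosen with earlier results of these data known. The rule took all chains, list members past the threshold and the first 2 markers of each marker list. Where no list member passed, it took the 3 with the smallest p by the brightest probe set of each gene. Alternatives were array weights, trended and robust variances, median centring, quantile normalization run again, removal of dim probe sets, the replicate number as a block, a covariate from the hybridization controls and leaving out each array.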

Additional observations from a re-analysis of the deposited data

How the results depend on the processing

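None of the 30 probe sets of the 10 integrin chains passed the threshold under any of 13 alternatives. Over all 45037 probe sets the count was 138, against 248 with trended and robust variances, 234 with array weights, and 0 with the hybridization controls as a covariate (4710 at an unadjusted p under 0.05, limma). It was 33, 73 and 23 without clodronate-liposome replicates 1, 2 and 3, and 15, 6 and 16 without PBS-liposome replicates 1, 2 and 3. With the replicate block it was 0 (5033 at an unadjusted p under 0.05). Same-numbered arrays shared little, with correlations of their deviations from the group means of 0.036 to 0.075, against -0.058 to -0.0065 for other numbers. Each array thus correlated best with its own number. Deviations within a group sum to 0, so both ranges are tied to each other and cannot settle whether the arrays were paired. The numbers were not taken as pairs in the main fit. The 2 pathway probe sets past the threshold became 0 with the replicate block, with the hybridization covariate and without each array in turn (lowest and highest count 0). The difference of the class contrast (0.09) was -0.047 with the most variable probe set of each gene. Among these 30 probe sets, 352 of 387 values under the alternatives kept direction and side of the threshold, and the other 35, in 14 probe sets, turned direction. All of the 14 differed by 0.1525 or less in the main fit. The removal of dim probe sets, median centring, trended and robust variances and the replicate block left each difference as it was. Quantile normalization run again hardly changed it. The 352 thus include values whose direction could not turn. Among the brightest, Itga1 was 0.045 with the hybridization covariate and -0.0872 to 0.0082 with 1 array left out, Itga3 was 0.041 with array weights and -0.119 to 0.143 with 1 array left out, Itga6 was -0.0839 to 0.0141 with 1 array left out, and Itgb1 was -0.0186 with array weights and -0.0556 to 0.0597 with 1 array left out. The brightest probe sets of Itgb3, Itgb4 and Itgb5 stayed between -0.69 and -0.49, and the lowest limma adjusted p was 0.0557 for Itgb3 with array weights (0.0557 to 0.323 over its 13 alternatives). With 3 arrays per group, adjusted p values near the threshold depend on the variance model. No detection calls were used, so probe sets near background were not set apart.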
